A study of Triticum aestivum with 4 samples.

Results

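Tubulins build microtubules and actins build actin filaments, the 2 filament systems that steer where a plant cell adds wall material and how it elongates and divides. In roots, microtubules beneath the plasma membrane guide cellulose synthesis, and actin bundles carry the vesicles that feed elongating cells and root hairs. New actin filaments are started by formins, which stay at the growing end, or by the Arp2/3 complex, which starts branches; profilin and actin-depolymerizing factor (ADF) bind actin subunits and set how fast filaments grow and come apart, and villins and fimbrins tie filaments into bundles.

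The transcripts described here are those whose best protein hit in a wheat relative (Aegilops, Triticum, Hordeum or Brachypodium) carries 1 of these names: tubulin, actin, profilin, villin, formin-like, fimbrin, actin-depolymerizing factor or actin-related protein, with kinesins and microtubule-associated proteins left out. They number 242 transcripts in 135 assembled genes, of 91482 transcripts in 47167 assembled genes that had a value in each library. The plants were bread wheat (Triticum aestivum), genotype UAS-375, and the tissue was root of 45-day-old plants. Seeds of the hypergravity group were exposed to 10 g over 12 h and then sown in greenhouse pipes, beside untreated seeds of the control group. Each group had 2 libraries, called a and b here, and the labels do not say whether these came from separate plants or from pools, so the p-values cover library spread, which may be technical. The comparison asks which cytoskeleton transcripts differed in roots of plants whose seed had been treated.

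Recovered read counts totalled between 46604327 and 53346750 per library. Markers of cell types were searched only among transcripts with recovered counts, none of which holds a 0. Transcripts of root markers (143 transcripts) took 0.202% to 0.213% of the counts in every library. Those of leaf or shoot markers (6 transcripts) took 0.0029% in each control library, 0.0039% in hypergravity a and 0.0033% in hypergravity b. By the call defined below, 13.5% of all transcripts were higher in hypergravity and 11.9% lower. Among the root markers 16 were higher (11.2%) and 29 lower (20.3%), with a median log2 change of -0.26. Of the 6 leaf or shoot markers 2 were higher and 1 lower, with a median of 0.50. Of the 66 markers of dividing cells 13 were higher (19.7%) and 11 lower (16.7%). Of the 9 xylem markers 3 were higher (33.3%) and 0 lower. The xylem markers took 0.0201% to 0.0208% of a control library's counts and 0.0258% to 0.0288% of a hypergravity library's. In whole roots, fewer cells of a type and less RNA per cell cannot be told apart, and the part of these cell types in the results below was not tested. The share of counts with a best hit outside the grasses was 3.95% to 4.07% per control library and 4.40% to 4.62% per hypergravity library.

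The cytoskeleton transcripts had a median change near 0, and a small set of formin-named transcripts changed about 2-fold, some higher and some lower. A transcript was called at an adjusted p under 0.05 in limma, a linear model fitted over all transcripts. Of the 242 members, 24 were higher and 23 were lower in hypergravity, 19.4% in all, and 195 were not called. Over all transcripts 25.5% were called, 13.5% higher and 11.9% lower, and among the 59378 with a hit in a wheat relative 13.2% were higher and 13% lower. Called changes of at least 2-fold were found for 11 members, or 4.55%, against 8.1% of all transcripts. The median log2 fold change of the members was -0.0019, against -0.010 over all transcripts, and single members ranged from -1.04 to 1.16. The libraries of the groups did not overlap for 76 members above control and 73 below, together 61.6%, against a background of 63.9%. In all, the members took 0.353% of the counts in both control libraries and 0.366% and 0.373% in hypergravity.

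**Figure D1:**
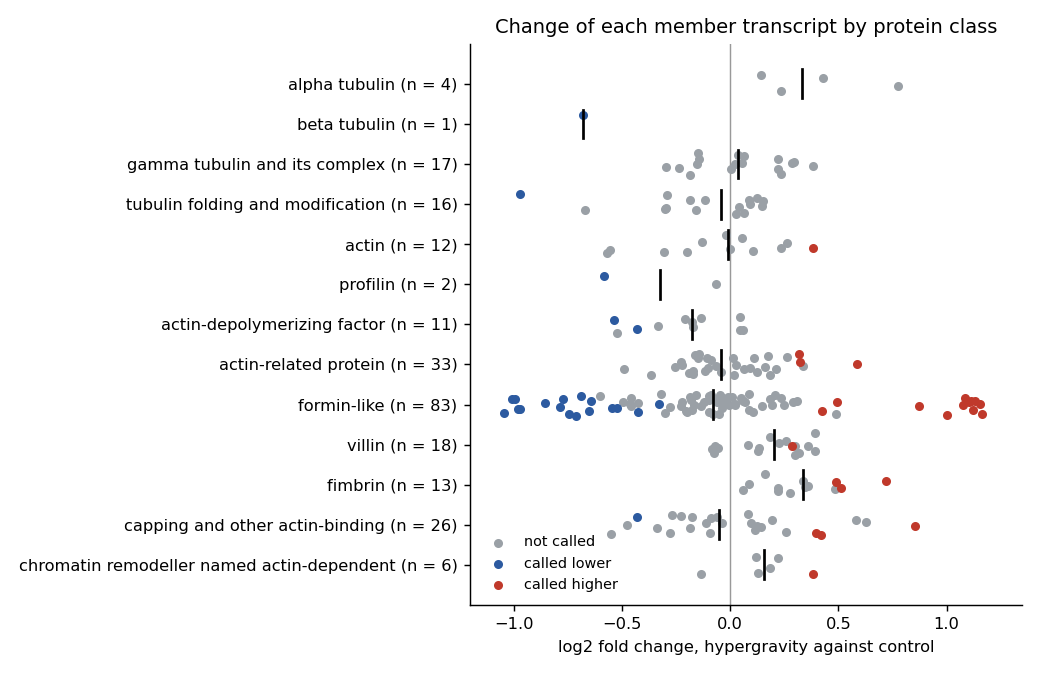
Change of each of the 242 member transcripts, in rows by protein class. The x axis is the log2 fold change of hypergravity against control, each point is 1 transcript (red called higher, blue called lower, grey not called) and black bars are class medians; the 12 formin-like members called higher and the 17 called lower hold most of the outermost points.

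The formins, the largest class with 83 transcripts in 50 assembled genes, held 29 of the 47 called members. Of the 83, 12 were higher (14.5%) and 17 lower (20.5%), where 13.5% and 11.9% of all transcripts were. The other 159 members had 12 higher (7.55%) and 6 lower (3.77%) calls. The direction differed between formin names. Formin-like protein 16 was called higher in 3 of 3 transcripts and formin-like protein 6 in 6 of 10, whereas formin-like protein 5 was called lower in 9 of 15. Formins numbered 10, 13, 14, 15, 18 and 20 had 0 of 28 transcripts called by limma, and 2 of these had an unadjusted p under 0.05. Formin-like protein 16 also held the formin transcript with the highest level per length, TRINITY_DN17444_c0_g1_i11 at 2094 normalized counts per kilobase. Transcript i7 of this gene had 2727 and 2800.4 normalized counts in control and 5660.2 and 6395 in hypergravity, a log2 fold change of 1.12 ± 0.09 (SE) with adjusted p 2.61e-05. Both hypergravity libraries were about 2 times the control libraries, and the other 2 transcripts of the gene had log2 fold changes of 1.08 each. Summed over its 3 transcripts, the gene had 7708 and 8009 normalized counts in control and 15820.1 and 17822 in hypergravity, a change of 1.10 ± 0.09 with adjusted p 2.83e-05.

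The formin-like protein 6 gene TRINITY_DN22116_c0_g1 was also higher, and all 5 of its transcripts were called higher, with log2 fold changes between 1.10 and 1.16. Transcript i1 had 352 and 380.5 normalized counts in control and 786 and 856 in hypergravity, a change of 1.16 ± 0.11 with adjusted p 5.41e-05. The sum over the gene was 2042 and 2189.8 normalized counts in control and 4432 and 4829 in hypergravity, a change of 1.13 ± 0.09 with adjusted p 3.32e-05. The groups stood far apart, and the libraries within each differed little. A transcript of a second formin-like protein 6 gene, TRINITY_DN2329_c0_g2_i3, had 173 and 147 normalized counts in control and 271 and 315 in hypergravity and a change of 0.87 ± 0.15 (adjusted p 0.00251). The single transcript of formin-like protein 8, TRINITY_DN24878_c0_g1_i5, was low in level, with 92.7 and 71.4 normalized counts in control and 166 and 162 in hypergravity, and changed by 1.0 ± 0.19 (adjusted p 0.0041). In Arabidopsis the formin of that number is known for a part in root hair growth, although grass and Arabidopsis formins do not match number by number.

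Among the formins that were lower, the formin-like protein 5 gene TRINITY_DN5965_c0_g1 was called in all 6 of its transcripts, with log2 fold changes between -1.04 and -0.52. Transcript i14 had 171 and 172 normalized counts in control and 72.0 and 94.7 in hypergravity, a change of -1.04 ± 0.19 with adjusted p 0.00325, and the gene's sum was 4144 and 3774 normalized counts in control and 2365 and 2398 in hypergravity, a change of -0.73 ± 0.09 with adjusted p 0.000354. In rice, mutants of the formin named FH5 have changed cell shape and organ growth. The other 3 called transcripts of that name came from 3 further assembled genes. They were shorter, at 511 to 834 bases, and changed by -0.98 ± 0.31 (TRINITY_DN40622_c0_g2_i1), -0.65 ± 0.20 (TRINITY_DN16687_c0_g1_i1) and -0.64 ± 0.16 (TRINITY_DN3332_c0_g1_i1). Each of these 3 calls was lost without control b and without hypergravity b, and the first 2 also with the length trend removed. Of the 6 calls in TRINITY_DN5965_c0_g1, that of i12 was lost without control a and without hypergravity b.

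Formin-like protein 1 was split between assembled genes. TRINITY_DN8596_c0_g1_i3 had 3335 and 4019.8 normalized counts in control and 1893 and 1755 in hypergravity, with a change of -1.01 ± 0.11 and adjusted p 0.000113, and i6 of the same gene had 6216 and 6512 normalized counts in control and 3214 and 3289 in hypergravity, with a change of -0.97 ± 0.09. This gene holds 7 transcripts, of which 5 have no protein hit and carried most of its reads. Its sum over all 7 was 44108 and 45418 normalized counts in control and 21821 and 22209 in hypergravity. That is a change of -1.02 ± 0.08 with adjusted p 2.04e-05. The sum was the largest of any formin-named gene, but it is not a level of formin-named transcripts alone. In hypergravity, i3 and i6 together lay far below the formin-like protein 16 gene, at 15820.1 and 17822. By contrast, TRINITY_DN9320_c0_g1_i2 was higher, with 420.1 and 444 normalized counts in control and 544 and 683 in hypergravity and a change of 0.50 ± 0.13 (adjusted p 0.0182; the call was lost without hypergravity b). A further gene of the name, in TRINITY_DN15109_c0_g2_i1, lay closest inside the threshold, at -0.33 ± 0.11 with adjusted p 0.0497. This call was lost whichever library was left out, and with scaling by library totals or by size factors from transcripts with wheat-relative hits. The sum over its gene was -0.16 with adjusted p 0.228, not called. The member closest outside it was actin-7 TRINITY_DN22572_c1_g1_i1, at 0.26 ± 0.09 with adjusted p 0.0583.

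The remaining lower formins were single genes. Formin-like protein 7 TRINITY_DN8139_c0_g2_i5 had 448 and 388 normalized counts in control and 239.8 and 247 in hypergravity and changed by -0.77 ± 0.13 (adjusted p 0.00175), and 3 of the 4 transcripts of this gene were called lower; the other 2 of these calls were lost without control a. Formin-like protein 12 TRINITY_DN4690_c0_g3_i1 had 86.8 and 76.1 normalized counts in control and 43.8 and 37.1 in hypergravity and changed by -0.99 ± 0.23, a call lost without hypergravity b. Formin-like protein 3 TRINITY_DN64390_c0_g1_i1 had 54.2 and 71.4 normalized counts in control and 37.5 and 34 in hypergravity and changed by -0.78 ± 0.25, with adjusted p 0.0408. This call was lost when any of the libraries except control a was left out, and with the length trend removed. In all 3 transcripts both hypergravity libraries lay below both control libraries, as the rule that named them required.

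Protein domains were listed for some of the formin transcripts, and they were split by them after the values were seen, so the split is given without a test. A formin is defined by the formin homology 2 (FH2) domain, the part that holds the growing filament end. Of the 21 transcripts that list it, 6 were higher and 3 lower, with a median log2 change of 0.05; the 6 are those of formin-like proteins 16, 8 and 1. Of the 41 with no listed domain, 0 were higher and 13 lower in limma, and 0 and 16 at an unadjusted p under 0.05, with a median log2 change of -0.22. The remaining 21 list another domain, and 6 of them were higher and 1 lower. Transcripts without a listed domain were shorter, with a median of 1043 bases against 2101 for those with FH2. All 9 lower calls of formin-like protein 5 and both of TRINITY_DN8596_c0_g1 list no domain, and none of the 6 higher calls of formin-like protein 6 lists FH2, whereas 2 of the 3 lower calls of formin-like protein 7 and the lower call of formin-like protein 12 list FH2. These names come from the best protein hit alone, and whether the transcripts that list no FH2 domain encode formins was not tested.

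**Figure D2:**
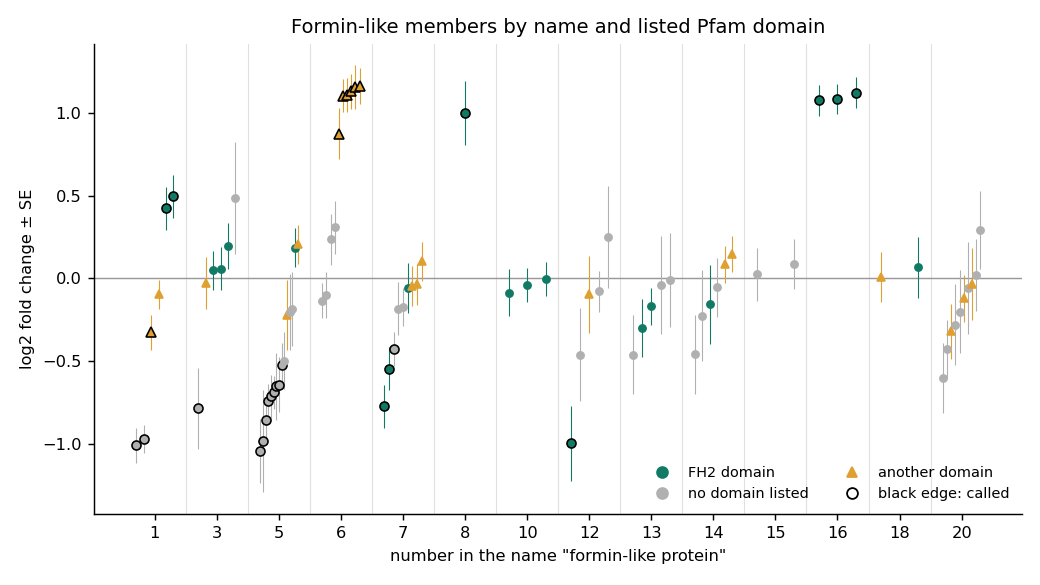
The 83 formin-like transcripts by the number in their name. The y axis is the log2 fold change ± SE, symbols give the listed Pfam domain and a black edge marks a called transcript; the points of formin-like proteins 8 and 16 near 1.0 list an FH2 domain, and the 9 called transcripts of formin-like protein 5 list no domain.

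The Arp2/3 complex is the other starter of actin filaments. Of 16 transcripts of its subunits, 2 were called higher (12.5%) and 0 lower, with a median of 0.14. Over all transcripts 13.5% were higher and 11.9% lower. Both calls were isoforms of the ARP3-like gene TRINITY_DN9178_c0_g1. Isoform i7 had 615 and 599 normalized counts in control and 724 and 797 in hypergravity and changed by 0.32 ± 0.10 with adjusted p 0.0436, and isoform i1 by 0.32 ± 0.11. Both calls were lost with quantile normalization and without control a, without control b or without hypergravity b, and that of i1 also with the length trend removed. The gene's other 2 isoforms were at 0.33 and 0.21, not called. Actin-related proteins 4 to 9, of which ARP4, ARP5 and ARP6 are known as subunits of chromatin complexes, had 1 of 17 transcripts called (5.88%). It was ARP7, a nuclear protein in Arabidopsis, TRINITY_DN6167_c0_g2_i1, with 141 and 158 normalized counts in control and 241 and 209 in hypergravity and a change of 0.59 ± 0.16 (adjusted p 0.0212); it was lost without control a and without hypergravity a. ARP7 of another assembled gene, TRINITY_DN8450_c0_g2_i1, was at -0.22 ± 0.10, not called. The most abundant per length was ARP4 TRINITY_DN6612_c0_g2_i3, at 1074 normalized counts per kilobase and a change of 0.13 ± 0.09, not called, and the 7 ARP8 transcripts lay between -0.23 and -0.11 with none called.

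Actin itself had 1 called transcript of 12 (8.33%), where 25.5% of all transcripts were called, and a class median of -0.01. Actin-2 TRINITY_DN12761_c1_g2_i2 had 1354 and 1342 normalized counts in control and 1703 and 1820.5 in hypergravity and changed by 0.38 ± 0.09 (adjusted p 0.0106); the call was lost without control b. The sum over its gene, 2645 and 2644 normalized counts in control and 3227 and 3345 in hypergravity, a change of 0.31 ± 0.09 with adjusted p 0.0237, was also called. The actin with the highest level, actin-7-like TRINITY_DN15830_c0_g1_i1 at 7042 normalized counts per kilobase, had 3790.3 and 3908 normalized counts in control and 4220.1 and 4052 in hypergravity, and its change of 0.10 ± 0.08 was not called. Another actin-7-like gene varied within the groups as much as between them: TRINITY_DN27225_c0_g1_i4 had 758 and 1191 normalized counts in control and 789 and 521 in hypergravity, which overlap, and its change of -0.57 ± 0.22 was not called.

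Among the proteins that bind actin subunits, the called transcripts were all lower and lay far below the most abundant ones in level. Profilin-1 TRINITY_DN51817_c0_g2_i2, at 8150 normalized counts per kilobase, had 5592 and 5472 normalized counts in control and 5424 and 5159.7 in hypergravity, and its change of -0.06 ± 0.09 was not called. The other profilin, TRINITY_DN6658_c0_g1_i1, had 342 and 333 normalized counts in control and 229 and 220.4 in hypergravity and changed by -0.58 ± 0.13 with adjusted p 0.0076; both hypergravity libraries lay well below both control libraries. ADF4-like TRINITY_DN9796_c0_g1_i4 had the highest level per length of all members, 8696 normalized counts per kilobase, with 6321 and 6788 normalized counts in control and 6941 and 6733 in hypergravity and a change of 0.06 ± 0.09, not called. ADF7 was called lower in both its transcripts. TRINITY_DN15781_c0_g1_i4 had 373 and 397 normalized counts in control and 282 and 249 in hypergravity, a change of -0.54 ± 0.13 with adjusted p 0.0119, and i3 changed by -0.43 ± 0.12; both calls were lost without control b and without hypergravity b. Of the 11 ADF transcripts, 2 were lower (18.2%), 0 higher, and the median was -0.18. The shares over all transcripts were 11.9% lower and 13.5% higher. Both ADF calls belong to 1 of the 5 assembled genes of the class.

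**Figure D3:**
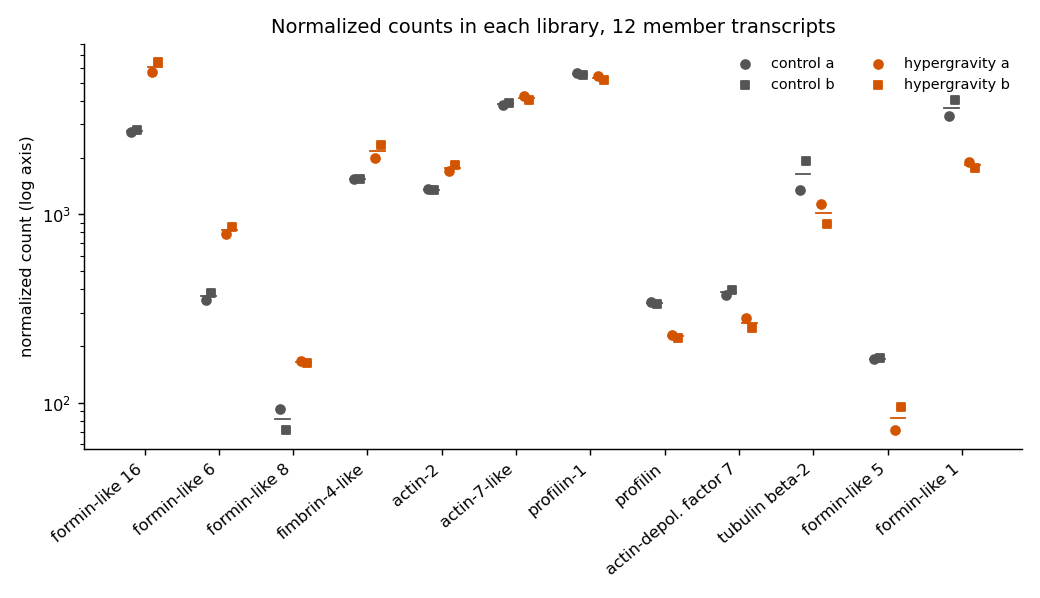
Normalized counts of 12 member transcripts in each of the 4 libraries. The y axis is logarithmic, circles are library a and squares library b, grey is control and orange hypergravity, and short lines are group means; formin-like proteins 16 and 6 are about 2 times higher in both hypergravity libraries, whereas the groups of actin-7-like and profilin-1 lie close together.

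Bundling proteins had positive medians, and their called members were fimbrin-4-like and villin-3, all higher. All 13 fimbrin transcripts had a positive change, with a median of 0.34, and 3 were called higher (23.1%) and 0 lower. The shares over all transcripts were 13.5% higher and 11.9% lower. The 13 come from 5 assembled genes, so these are not 13 independent readings. The 3 calls come from 2 of the genes. Fimbrin-4-like TRINITY_DN5170_c0_g2_i6, the most abundant, had 1542 and 1533 normalized counts in control and 1989.6 and 2341 in hypergravity and changed by 0.49 ± 0.10 (adjusted p 0.00567), and isoform i10 changed by 0.51 ± 0.10. The remaining call, TRINITY_DN5170_c1_g1_i2, had 92.7 and 75.2 normalized counts in control and 147 and 129.7 in hypergravity and a change of 0.72 ± 0.19. This call was lost without control b and without either hypergravity library. The other member of its gene was at 0.06, not called, and the gene's sum changed by 0.27 ± 0.13 with adjusted p 0.169, not called. The fimbrin-2-like and fimbrin-5-like transcripts, all below 203 normalized counts in every library, were not called. Villins had 1 of 18 transcripts called (5.56%) and a median of 0.20. Villin-3 TRINITY_DN669_c0_g2_i2 had 2484 and 2423 normalized counts in control and 2871 and 3118 in hypergravity and changed by 0.29 ± 0.09 with adjusted p 0.038, a call lost when any library except hypergravity a was left out and with the length trend removed. The most abundant per length, villin-2-like TRINITY_DN4090_c0_g1_i4 at 1423 normalized counts per kilobase, had 2123 and 2022 normalized counts in control and 1845 and 2094 in hypergravity; its groups overlap, and its change of -0.08 ± 0.10 was not called.

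Stomatal closure-related actin-binding protein 1 (SCAB1) in Arabidopsis bundles and steadies actin filaments in guard cells. It was the other actin-binding protein with higher calls, 3 of 9 transcripts (33.3%), from 2 of its 5 assembled genes. The share called higher over all transcripts was 13.5%. The SCAB1 transcript TRINITY_DN1419_c0_g1_i8 had 2374 and 2244 normalized counts in control and 2933 and 3254 in hypergravity and changed by 0.42 ± 0.09 (adjusted p 0.00801), and i6 changed by 0.39 ± 0.09; both were lost without control b. The SCAB1-like TRINITY_DN80501_c0_g1_i2 had 58.2 and 62.0 normalized counts in control and 100.1 and 119 in hypergravity and changed by 0.85 ± 0.20 (adjusted p 0.0128), lost without hypergravity b. The sum over a further SCAB1-like gene, TRINITY_DN11714_c1_g1, went the other way, with 1494 and 1332 normalized counts in control and 862 and 938 in hypergravity, a change of -0.65 ± 0.11 with adjusted p 0.0021. Its 2 member transcripts were not called, and its other 3 transcripts are not members. The pan-1-like transcript TRINITY_DN8971_c0_g2_i1, named after a fungal regulator of actin patches, had 724 and 733 normalized counts in control and 589 and 495 in hypergravity and changed by -0.43 ± 0.11 (adjusted p 0.0202), lost without control b and without hypergravity b. Of the 7 F-actin-capping transcripts limma called 0, with 1 at an unadjusted p under 0.05. The rule also took in 6 transcripts of chromatin remodellers that carry the words actin-dependent in their name, and 1 of these was higher, TRINITY_DN27989_c0_g1_i1 with 721 and 696 normalized counts in control and 887 and 959.7 in hypergravity and a change of 0.38 ± 0.10, a call lost without control b and without hypergravity b.

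The tubulin chains with wheat-relative hits and recovered counts were few, 4 alpha and 1 beta. All 4 alpha tubulin transcripts had both hypergravity libraries above both control libraries. Over all transcripts the groups did not overlap, in either direction, for 63.9%. In limma 0 of the 4 were called, with 2 at an unadjusted p under 0.05, and the median change was 0.33. Tubulin alpha-1 chain-like TRINITY_DN6824_c0_g1_i4, at 1190 normalized counts per kilobase, had 2168 and 2347 normalized counts in control and 2746 and 2574 in hypergravity, a change of 0.24 ± 0.09 with adjusted p 0.0818. Its assembled gene holds 3 transcripts, and their sum was called, with 3358 and 3664 normalized counts in control and 4663 and 4289.6 in hypergravity, a change of 0.35 ± 0.09 with adjusted p 0.0192. The largest of the 4 changes, 0.78 ± 0.28, belonged to the scarce TRINITY_DN879_c0_g3_i1, with 27.6 and 40.4 normalized counts in control and 67.8 and 49.4 in hypergravity. Tubulin beta-2 TRINITY_DN4149_c0_g1_i2 was called lower, with 1348 and 1925 normalized counts in control and 1135 and 892 in hypergravity, a change of -0.68 ± 0.16 and adjusted p 0.0135. Its control libraries differed from each other by more than control a differed from hypergravity a, and the call was lost without hypergravity b.

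Most tubulin reads lay outside these 5 transcripts, because the best hits of the abundant tubulin transcripts name other plants. Among the 240 transcripts with the same words and a best hit in another species, 62 were higher and 35 lower, with a median of 0.10. In the 218 of these with hits outside the grasses, 24.3% were higher and 14.7% lower, where 23.4% and 6.58% of all transcripts with such hits were. In the 22 with hits in other grasses, 9 were higher and 3 lower, where 17.4% and 10.1% of all transcripts with such hits were.

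Of 35 alpha tubulin transcripts in that set, 14 were higher and 5 lower, and large changes were found in both directions. The 4 with hits in other grasses were all called higher, by 0.54 ± 0.10, 1.32 ± 0.15, 1.57 ± 0.25 and 2.24 ± 0.13 on the log2 scale. The last of these, TRINITY_DN21325_c0_g1_i2, had 140.0 and 123 normalized counts in control and 611 and 633 in hypergravity. All 5 lower calls have hits outside the grasses, and 4 of them fell further than any of the 14 rose. TRINITY_DN5498_c0_g1_i9, with a best hit in Ipomoea triloba, had 1953 and 1662 normalized counts in control and 61.5 and 82.4 in hypergravity, a change of -4.64 ± 0.16, the lowest of all 91482 transcripts. Isoform i1 of that gene changed by -4.58 ± 0.24, TRINITY_DN19986_c0_g1_i1 by -3.12 ± 0.22 and TRINITY_DN7368_c0_g1_i2, whose best hit is in the green alga Coccomyxa subellipsoidea, by -2.59 ± 0.16. Of 32 beta tubulin transcripts in the set, 6 were higher and 6 lower, with changes from -2.68 to 1.74. Not counted in the 32 were transcripts named beta tubulin, autoregulation binding site, of which 3 were called lower. These were TRINITY_DN18056_c0_g1_i12 at -3.68 ± 0.12, i3 of that gene at -3.28 ± 0.15 and TRINITY_DN26061_c0_g1_i7 at -1.55 ± 0.32. Of 46 actin transcripts 10 were higher and 9 lower, with changes from -4.33 to 2.45.

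The most abundant tubulins of the table were not called. By counts the highest was TRINITY_DN7368_c0_g3_i1, an alpha tubulin with an oil palm hit, with mean levels of 27954 normalized counts in control and 32452 in hypergravity, and its change of 0.21 ± 0.11 was not called. Per length the highest was TRINITY_DN22487_c0_g1_i1, an alpha tubulin with a best hit in Ziziphus jujuba, at 43130.1 normalized counts per kilobase against 22306.5 for the former, and its change of 0.08 ± 0.10 was not called. These rows were not members, and whether a hit outside the grasses marks wheat RNA or that of another organism was not tested.

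Gamma-tubulin, which with its complex starts microtubules, had 0 of 17 transcripts called by limma, where the smallest adjusted p was 0.0647 and the median change was 0.04. Without adjustment, 4 of these transcripts had a limma p under 0.05. The component with the highest level per length was component 2 TRINITY_DN8699_c0_g2_i2, at 553 normalized counts per kilobase, with 405 and 519 normalized counts in control and 406 and 401 in hypergravity and overlapping groups. Tubulin gamma-2 TRINITY_DN21305_c0_g1_i3 had 655 and 598 normalized counts in control and 727 and 811 in hypergravity, a change of 0.29 ± 0.11 that was not called. Of the 16 transcripts for tubulin folding and modification, 5 had an unadjusted limma p under 0.05, all with negative changes, and 1 was called lower. It was tubulin-folding cofactor B TRINITY_DN19775_c0_g1_i4, which helps alpha tubulin fold, with 133 and 206 normalized counts in control and 116 and 60.8 in hypergravity and a change of -0.97 ± 0.30 (adjusted p 0.0404); the call was lost without control b, without hypergravity b and with the length trend removed. Summed per assembled gene, TRINITY_DN19775_c0_g1 changed by -0.82 ± 0.26 with adjusted p 0.0406. Cofactor B gene TRINITY_DN19327_c1_g1, of whose 3 transcripts 1 is a member, changed by -0.46 ± 0.12 with adjusted p 0.0225. Its member transcript was at -0.12, not called. Sums of the cofactor B genes TRINITY_DN5534_c0_g2 (-0.30) and TRINITY_DN5606_c0_g1 (0.14) were not called. Tubulin-tyrosine ligase-like protein 12 TRINITY_DN8337_c0_g1_i7, at 1422 normalized counts per kilobase, had 4469.7 and 4564 normalized counts in control and 3819.7 and 4306 in hypergravity and a change of -0.16 ± 0.09, not called.

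**Figure D4:**
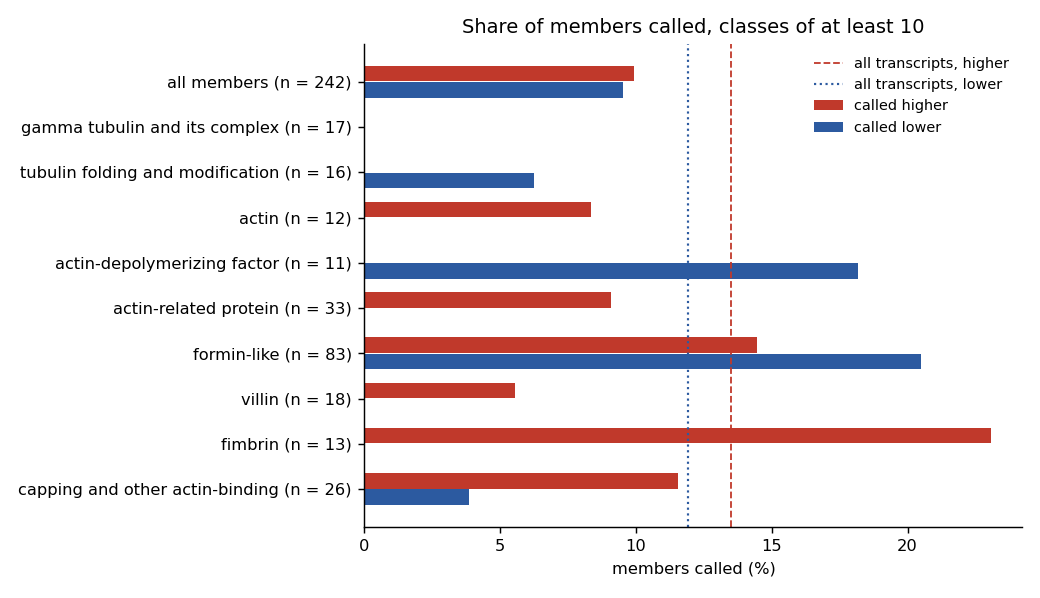
Share of members called in each direction, for all 242 members and for each class with at least 10. The x axis is the percent of the class called higher (red) or lower (blue) and the dashed and dotted lines are the shares over all 91482 transcripts, 13.5% higher and 11.9% lower; only formins, fimbrins and ADFs pass a line, and gamma tubulin has no bar.

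Transcripts of an assembled gene mostly had changes of the same sign. Of 61 genes with at least 2 members, 52 had all their members on the same side of 0, and 0 had 1 member called higher and another called lower. When all transcripts of an assembled gene were summed, 14 of the 135 genes were higher and 15 lower, where 14.3% and 12.3% of all 47167 genes were. Transcripts of a gene share reads and so do the 3 wheat subgenomes' near copies, so the isoforms named above are not independent readings of a change, and a change of 1 copy cannot be told apart from a shift of reads between copies.

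The proteins that move on or organize these filaments were counted beside them, from a list of 423 transcripts that share no transcript with the members: 83 were higher (19.6%) and 25 lower (5.91%), with a median of 0.09. Together these are 25.5% of the list, the same share as over all transcripts, with more of them higher. The higher calls were mostly motors, a name search for kinesins and myosins, with 56 higher (25.9%) and 19 lower (8.80%) of 216 and a median of 0.18; it also catches names such as tropomyosin-like. Kinesin KIN-6 TRINITY_DN10233_c0_g1_i10 had 60.1 and 69.5 normalized counts in control and 202 and 172 in hypergravity and changed by 1.51 ± 0.19. Kinesin KIN-4C TRINITY_DN12212_c0_g1_i3 was lower, with 428 and 499 normalized counts in control and 254 and 221 in hypergravity and a change of -0.96 ± 0.14. Of 154 microtubule organizers 23 were higher (14.9%) and 5 lower (3.25%); the largest change among these was katanin p80 TRINITY_DN1998_c1_g1_i6, a subunit of the microtubule-severing enzyme, with 293 and 333 normalized counts in control and 867 and 819 in hypergravity and a change of 1.43 ± 0.11. The regulators of actin nucleation (20 transcripts) had 2 higher and 0 lower, the Rac-like GTPases and their exchange factors (8) had 1 and 0, and the dynamins with the cellulose synthase linkers (25) had 1 and 1.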

How the data were processed

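Total RNA of wheat roots was sequenced as stranded paired-end mRNA libraries, per the labels' protocols, and the submitters' processing notes name RSEM, with no version. Not given in the sources used here: assembler, aligner, filters and use of strand. Identifiers have the form of a Trinity assembly, without positions on a genome. The deposited table gives 1 signal column per group. In 91482 of its 147297 rows this deposited signal adds up both libraries' counts after scaling by size factors (1.01, 1.06, 0.959 and 0.971 for control a, control b, hypergravity a and hypergravity b), although the header calls it FPKM. Every one (100%) split into 1 pair of whole counts within a tolerance of 1e-09, and the lowest recovered count was 9, so no tested row holds a 0. In the other 55815 rows the deposited values, FPKM per the file headers, give 1 value per group and were described only. Nothing ties a recovered library to a replicate number.

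Normalized counts were compared by limma 3.58.1 in R 4.3.3 on log2(count + 1), with eBayes and a trend, 2 residual and 7.91 prior degrees of freedom. Adjusted p-values are Benjamini-Hochberg values over 91482 transcripts. Fold changes are hypergravity against control, on the log2(value + 1) scale. A mean of at least 1 was required and removed 0 transcripts. No count-based test was run on the recovered counts, since the deposited columns are themselves sums of scaled counts. The recovery and the test were first tested on simulated data. Transcripts were named by rule: the 12 largest called changes in each direction without overlap, 1 per assembled gene, and in each class the highest level per kilobase and up to 2 largest called changes; values quoted for other transcripts were chosen after they were seen. Members and lists were chosen with earlier results of these data known. Alternatives changed the scaling, pseudocount, filter, unit of the test and libraries. Counting error falls with depth and covers only part of the spread, since isoforms and subgenome copies share reads.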

Additional observations from a re-analysis of the deposited data

Results flagged for a closer look

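Another 35 transcripts met the same words and species but had values with at most 2 decimals, deposited as FPKM with 1 value per group and used in no comparison above. Of these, 17 were above control in hypergravity and 18 below, with medians of 1.15 in control and 1.14 in hypergravity, whereas 68.3% of all 55815 such rows were above control. Highest of the 35 was tubulin beta chain-like TRINITY_DN4149_c1_g1_i4, at 51.8 FPKM in control and 59.54 FPKM in hypergravity. In 3 of the 35 a signal appeared in hypergravity where control is listed at 0. They were tubulin alpha-5 chain-like TRINITY_DN2014_c0_g1_i4 at 4.18 FPKM, actin-related protein 3 TRINITY_DN22800_c0_g1_i1 at 2.49 FPKM and gamma-tubulin complex component 3 TRINITY_DN103472_c0_g1_i1 at 1.91 FPKM. In the other direction, 3 transcripts were listed at 0 in hypergravity, the highest being tubulin beta-3 chain-like TRINITY_DN78885_c0_g1_i2 at 2.05 FPKM in control. Over all such rows, 16989 were listed at 0 in control and 2045 in hypergravity. These rows have no replicate values, so no difference between the groups was tested in them.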

How the results depend on the processing

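The counts of members called, 24 higher and 23 lower, stayed at 22 to 25 and 20 to 25 under other scalings, pseudocounts of 0.5 and 5, a mean of at least 50 and removal of the length trend, an alternative chosen after seeing the data. Summed per assembled gene, where fewer units are tested, 14 genes with a member were higher and 15 lower, and over all genes 6726 were higher and 5799 lower (main counts 12378 and 10928). Leaving out 1 library gave 16 to 24 members higher and 11 to 28 lower; the lower count was 15 without control b and 11 without hypergravity b. Over all transcripts the same gave 8905 to 10635 higher and 6983 to 10804 lower, with 6983 without control b and 7145 without hypergravity b. Where an arm has 1 library left, it is assumed to vary like the other group. Among the 23 lower members, control b lay above control a in 13 and hypergravity b below hypergravity a in 14. The median of the members lay between -0.0197 and 0.0228 with 1 library left out, the latter without control b. Of the 47 called members, 21 were called in all 11 alternatives that test transcripts (12 higher, 9 lower). These 21 come from fewer assembled genes. They include all 5 transcripts of TRINITY_DN22116_c0_g1, all 3 of TRINITY_DN17444_c0_g1, and the 6 of TRINITY_DN5965_c0_g1 except i12. Of the 47, 46 kept their sign in all alternatives, and the remaining one was removed by the mean of at least 50. Profilin-1 TRINITY_DN51817_c0_g2_i2, not called, moved to 0.038 with the length trend removed, and villin-2-like TRINITY_DN4090_c0_g1_i4, not called, ranged from -0.167 to 0.0157 with 1 library left out, the latter without hypergravity a. The cause of these shifts was not tested. No paired analysis was possible because the recovered libraries carry no replicate numbers.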
